A study of Mus musculus with 3 samples.

Results

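The genes described here encode the constitutive proteasome, its activators and its assembly factors, and they were followed across 3 liver arrays. A probe set, the group of oligonucleotides that reports 1 transcript, was taken when its annotation gave a single gene symbol of the Psma to Psmg families or Pomp. Psmb8, Psmb9 and Psmb10, the catalytic subunits of the immunoproteasome, were left out. This gave 56 of 12488 probe sets and 44 of 8251 genes with a single symbol. The core group held 14 genes (19 probe sets) of the Psma and Psmb families. The regulatory group held the other 30 genes (37 probe sets). By the letters of the symbol it also took in Psmc3ip, a cofactor of meiotic recombination, and Psme3ip1, a protein that binds the activator encoded by Psme3, neither of which is a proteasome subunit. All mice were homozygous apolipoprotein E knockout males on a C57BL/6JxOLA129 background, a line prone to high plasma cholesterol. From the age of 3 months they were fed for 12 weeks a diet with 1.0% by weight of c9,t11-CLA (10 mice), t10,c12-CLA (9 mice) or, as the control, linoleic acid (10 mice). CLA is conjugated linoleic acid, and the isomers are named for where their cis and trans double bonds lie. The design text describes semi-purified diets with 30% of energy as fat, whereas the sample labels speak of a western diet.

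The proteasome is the main protease of the cytosol and nucleus and degrades proteins marked with ubiquitin. Its core is a barrel with outer rings of alpha subunits (Psma), which gate the channel, and inner rings of beta subunits (Psmb), some of which carry the proteolytic sites. A regulatory particle caps the barrel: its base holds a ring of ATPases (Psmc) that unfold the substrate, and its lid (most Psmd genes) holds the enzyme that removes ubiquitin. In liver, as in other tissues, the constitutive genes are expressed broadly, and their transcription can be raised together by Nfe2l1, a transcription factor activated when proteasome activity is short.

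Each diet was represented by 1 array, so no difference between diets had a replicate check, no test was possible, and the sources used here do not say whether an array held 1 liver or a pool. Values are MAS5 signals, hybridisation intensities on a linear scale that had been brought to the same trimmed mean on the 3 arrays. The floor was the pooled median of all signals, 490.3, and a gene counted as measured between a pair of arrays if its brightest probe set exceeded the floor on each. From pairs of probe sets of the same gene, the SD of 1 log2 difference was 0.50 between c9,t11-CLA and control, 0.40 between t10,c12-CLA and control, and 0.51 between the isomers. It covers the assay and the choice of probes, not differences from mouse to mouse. Median signals were 524, 487 and 457 for c9,t11-CLA, t10,c12-CLA and control. The 3′ to 5′ signal ratio, a sign of RNA integrity, ranged from 0.78 to 1.06 for Gapdh and from 1.35 to 1.89 for beta-actin. Apoe gave 8695 on c9,t11-CLA, 4288 on t10,c12-CLA and 6570 on control, which does not check the genotype because no wild-type liver was included. Of 7 listed hepatocyte markers 6 were on the array, each above the floor on all arrays, and their summed signal was 352389 on c9,t11-CLA, 186598 on t10,c12-CLA and 162620 on control. Macrophage markers (9 of 10 above the floor on all arrays) summed to 51231, 82482 and 52412 in the same order, stellate cell markers (5 of 7) to 38450, 53766 and 43759, and endothelial markers (3 of 5) to 11801, 14212 and 11588. No marker of T and B cells (6 on the array) was above the floor on all arrays, and none of 3 biliary markers was above it on any. Signals of different genes are not on a common scale, so a sum mostly follows its brightest probe sets, and single markers are not given here. The part of these marker differences in the results below was not tested. In a piece of tissue, fewer cells of a type and less RNA per cell cannot be told apart.

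Proteasome genes were mostly lower on each CLA array than on the control array, by a fraction of a log2 unit. Of the 44 genes, 39 were above the floor on all 3 arrays, 3 on only some and 2 on none. For c9,t11-CLA minus control, the median log2 difference of the 39 measured genes was -0.25, with 28 below 0 and 11 above, against a median of 0.02 over 4324 measured genes. At least 1.5-fold lower were 10 of the 39, where 11.1% of all measured genes were, and 1 was at least 1.5-fold higher, where 13.0% of all were. At least 2-fold lower were 3 members (Psmd1, Pomp and Psmd14) and none was 2-fold higher, against 2.78% and 2.98% of all measured genes. With the arrays set to equal medians, 15 members were 1.5-fold lower and 1 higher, and the shares of all genes were 19.1% lower and 7.26% higher.

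For t10,c12-CLA minus control, the median log2 difference of the 39 was -0.25, with 26 below 0 and 13 above, against -0.01 over 4391 measured genes. At least 1.5-fold lower were 7, where 8.7% of all measured genes were, and 2 were 1.5-fold higher, where 9.31% were. Only Pomp was at least 2-fold lower and none of the 39 was 2-fold higher, against 1.87% and 2.05% of all. With equal medians, 10 members were 1.5-fold lower and 2 higher, and the shares of all genes were 11.9% and 7.07%. Both comparisons used the same control array, so a high control signal of a gene lowers both of its differences, and their likeness is not independent support for either. Measured genes whose mean signal lay in the middle range of the members (between their quartiles) had a median of -0.04 over 1081 genes for c9,t11-CLA and 0.01 over 1080 for t10,c12-CLA.

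Between the isomers the median lay close to 0. For t10,c12-CLA minus c9,t11-CLA, the median log2 difference of the 39 genes was 0.07, with 22 above 0 and 17 below, against -0.05 over 4382 genes. Psmd1 and Psmb2 exceeded 1.5-fold in favour of t10,c12-CLA, where 11.5% of all measured genes were, and Psme3ip1 was 1.5-fold lower, where 12.8% were. Past 2-fold stood Psmd1 alone, higher, against 3.47% of all genes higher and 2.56% lower. With equal medians, 5 members were 1.5-fold higher and 1 lower, and the shares of all genes were 14.6% and 8.95%. With 1 array per isomer no interval of these differences can be given.

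**Figure D1:**
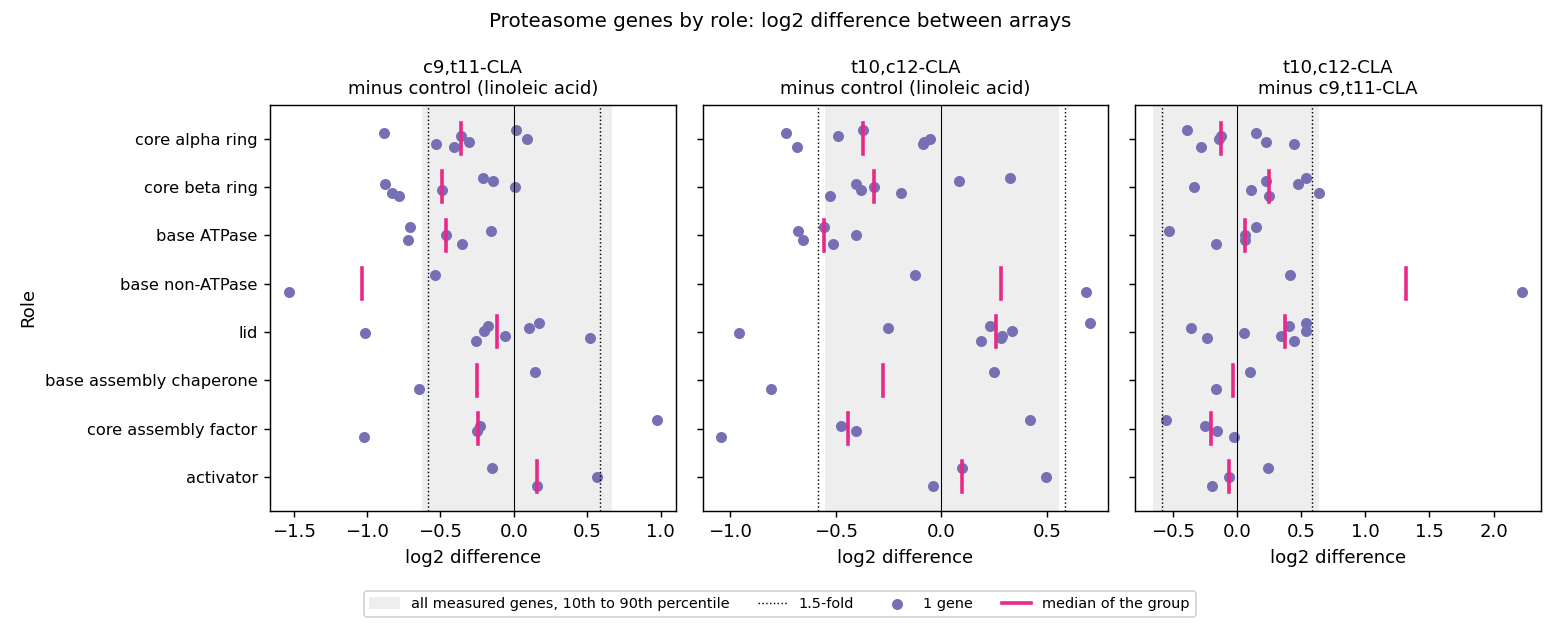
Log2 difference (x axis) of each measured proteasome gene, grouped by role (y axis), for c9,t11-CLA minus control, t10,c12-CLA minus control and t10,c12-CLA minus c9,t11-CLA. Each point is 1 gene, the bar the median of the role and the grey band the 10th to 90th percentile of all measured genes. The 5 measured ATPases lie below 0 on both CLA diets. By their brightest probe sets, 6 of 8 lid genes lie above 0 for t10,c12-CLA minus control, and Psmd1 stands apart at 2.22 between the isomers.

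The core particle was complete on the array, with 7 alpha and 7 beta genes, each above the floor on every array. Against control, the core median was -0.38 on c9,t11-CLA, with 11 of 14 genes below 0, and -0.35 on t10,c12-CLA, with 12 of 14 below 0. On c9,t11-CLA 4 of the 14 core genes were at least 1.5-fold lower (11.1% of all measured genes), and on t10,c12-CLA 2 of 14 were (8.7% of all), a count near the share of all genes. No core gene was 1.5-fold higher on either diet, where 13.0% of all measured genes were on c9,t11-CLA and 9.31% on t10,c12-CLA. None was 2-fold different, where 2.98% of all were higher and 2.78% lower on c9,t11-CLA, and 2.05% and 1.87% on t10,c12-CLA. Among 14 genes, counts of 0 are near such shares. The 25 measured genes of the regulatory group had medians of -0.20 and -0.13, with 17 and 14 below 0. Between the isomers the core median was 0.19 and the regulatory median 0.06.

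In the alpha rings the median was -0.36 on c9,t11-CLA and -0.37 on t10,c12-CLA. Psma6 gave 8739 on c9,t11-CLA and 9667 on t10,c12-CLA, against 16114 on control. The control array was well above both CLA arrays for this gene, which was 1.84-fold and 1.67-fold lower. Psma1 gave 1363 on c9,t11-CLA and 1123 on t10,c12-CLA, against 1804 on control. It was thus 1.32-fold lower on c9,t11-CLA and 1.61-fold lower on t10,c12-CLA, the lowest of its 3 arrays. Psma5 gave 4455 and 4078 on the same diets and 5716 on control, a log2 difference of -0.36 and -0.49. Psma2 and Psma3, subunits of the same rings, were lowest on c9,t11-CLA. Psma2 gave 5629 on c9,t11-CLA and 7657 on t10,c12-CLA, against 8125.0 on control. For Psma3 the signals were 13220.0 and 15458, against 16345.0 on control. Psma4 and Psma7 differed little on c9,t11-CLA, with log2 differences of 0.09 and 0.02. On t10,c12-CLA they stood at -0.05 and -0.37, with Psma7 at 6897 against 8912 on control and 9019 on c9,t11-CLA.

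The beta rings hold the catalytic subunits Psmb5, of the chymotrypsin-like site, Psmb6, of the caspase-like site, and Psmb7, of the trypsin-like site. Psmb5 gave 3644 on c9,t11-CLA and 5069 on t10,c12-CLA, against 6706 on control, 1.84-fold and 1.32-fold lower. A second, dimmer probe set of Psmb5 went the other way, with 1538 and 1650.4 on the CLA arrays against 1324 on control. Psmb6 was nearly level, at 5032 on c9,t11-CLA and 5890.3 on t10,c12-CLA against 5556 on control. Psmb7 gave 3073 on c9,t11-CLA and 4462 on t10,c12-CLA, against 3557 on control, so that it was highest on t10,c12-CLA. By their brightest probe sets, the 3 catalytic genes were each lowest on c9,t11-CLA. Psmb6 and Psmb7 had control in the middle and t10,c12-CLA highest, while Psmb5 had control highest.

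The other beta genes have structural parts in the ring. Psmb2 gave 3183 on c9,t11-CLA and 4958 on t10,c12-CLA, against 5656 on control. It was 1.78-fold lower on c9,t11-CLA but 1.14-fold lower on t10,c12-CLA, and 1.56-fold higher on t10,c12-CLA than on c9,t11-CLA. Psmb1 gave 3912 and 4664 on c9,t11-CLA and t10,c12-CLA, against 6714 on control, 1.72-fold and 1.44-fold lower. Its second measured probe set stood at 2413 and 1859, against 2263 on control, lower on t10,c12-CLA only. Psmb3 gave 10833.0 and 11683 on the CLA arrays against 15198 on control, and both CLA arrays were below it. Psmb4 gave 15973 and 12705 against 15868 on control, level on c9,t11-CLA and 1.25-fold lower on t10,c12-CLA. Between the isomers the beta genes had a median of 0.25, with 6 of 7 higher on t10,c12-CLA, and the alpha genes one of -0.13, with 3 of 7 higher.

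**Figure D2:**
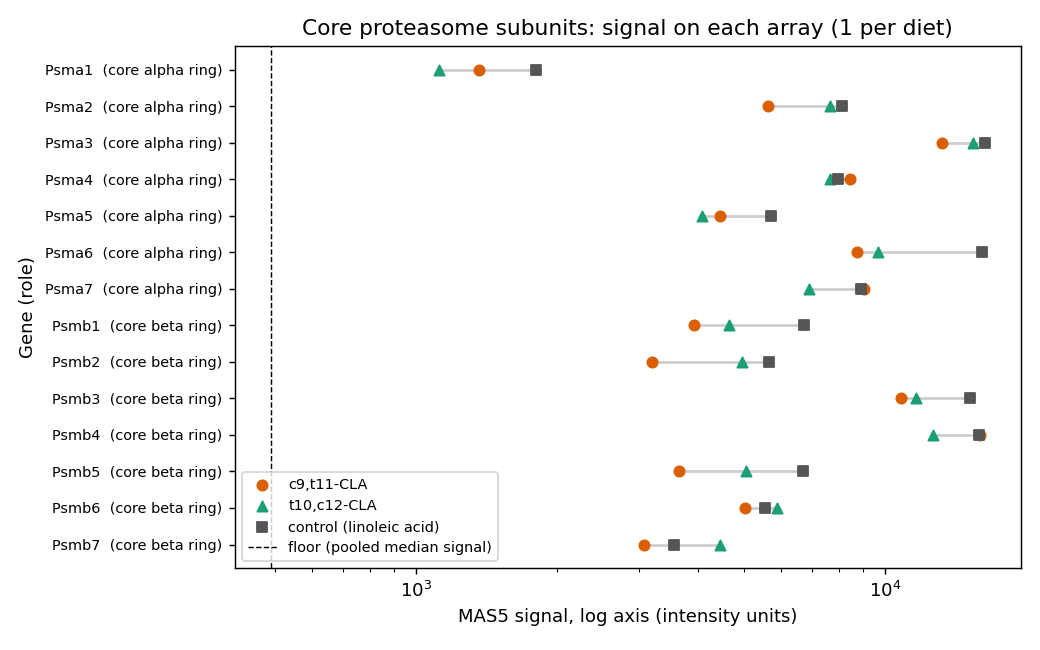
MAS5 signal (x axis, log scale) of the brightest probe set of each of the 14 core genes (rows) on the c9,t11-CLA, t10,c12-CLA and control arrays, 1 point per array, with the floor as a dashed line. Points are to be read along a row, since probe sets of different genes are not on a common scale. Psma6 and Psmb5 have the control array well to the right, Psmb7 has t10,c12-CLA to the right, and Psma4 is nearly level.

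Promoter sequence offered a feature that the choice of genes did not use. RefSeq promoter windows (GRCm38.p6, 250 bases before to 50 bases after the gene start) were matched for 37 of the 44 genes. The letters TGACNNNGC, the core of the antioxidant response element that Nfe2l1 and Nfe2l2 bind, were searched on both strands. They occurred in 6 of the 37 (16.2%), against 14.0% of 27025 genes. CCAAT, the box bound by the factor NF-Y, also searched on both strands, occurred in 14 (37.8%), against 41.1% of all genes, in 6 of 11 core genes (54.5%) and in 8 of 26 regulatory genes (30.8%). Of the 37 genes 0 held both motifs, against 5.81% of all genes. A match is a description, not a binding site. Of the 10 genes at least 1.5-fold lower on c9,t11-CLA, 8 had a window: 5 held a motif (Psma6, Psmb5, Psmc2, Psmc6 and Psmd14) and 3 held neither (Psmd1, Psmd5 and Pomp). Psma6, Psmc2 and Psmd14 held CCAAT (41.1% of all genes), and Psmb5 and Psmc6 the antioxidant response core (14.0% of all). The share of all genes with either motif was not computed. A link between motif and signal in these 5 genes was not tested. A stretch with a match is shown for 4 of the 5, picked for the match, 5′ to 3′ on the strand of the gene, with the match in capitals (ATTGG is CCAAT read on the opposite strand):
Psma6, chr12:55384163-55384221, plus strand: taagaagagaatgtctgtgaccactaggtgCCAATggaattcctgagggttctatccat
Psmb5, chr14:54618004-54618072, minus strand: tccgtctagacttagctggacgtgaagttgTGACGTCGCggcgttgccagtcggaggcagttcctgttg
Psmc2, chr5:21785217-21785274, plus strand: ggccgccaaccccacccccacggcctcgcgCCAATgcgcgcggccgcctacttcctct
Psmd14, chr2:61711505-61711569, plus strand: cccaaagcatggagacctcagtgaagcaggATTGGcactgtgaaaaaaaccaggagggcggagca

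The match shown begins 29 bases before the start in Psma6, 47 in Psmb5, 28 in Psmc2 and 159 in Psmd14. Psma6 has another CCAAT match 136 bases before the start, and Psmd14 has others 4 and 7 bases after it. The stretches of Psma6, Psmc2 and Psmd14 have the CCAAT letters in different surroundings, and the one of Psmb5 has the antioxidant response core. Over the 37 genes, each motif was held by a share close to that of all genes.

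In the base of the regulatory particle, 5 of the 6 ATPase genes were measured. The 5 measured ATPases were all below control on both diets, with a median of -0.46 and a range of -0.72 to -0.15 on c9,t11-CLA. On t10,c12-CLA the median was -0.56 and the range -0.68 to -0.40, and 2 of 5 were at least 1.5-fold lower on each diet (11.1% of all measured genes on c9,t11-CLA and 8.7% on t10,c12-CLA). The SD over the 5 genes was 0.24 on c9,t11-CLA, 0.11 on t10,c12-CLA and 0.27 between the isomers. Over all measured genes it was 0.53, 0.47 and 0.545 in the same order. The value of 0.11 lies below the 0.40 found from probe sets of the same gene, and what such closeness reflects was not tested. Psmc2 gave 3404 on c9,t11-CLA and 3564 on t10,c12-CLA, against 5609 on control, 1.65-fold and 1.57-fold lower. Psmc6 gave 7151 and 7927 on the CLA arrays against 11668 on control, with the control array again apart from the others, 1.63-fold and 1.47-fold lower. Psmc5 was 1.60-fold lower on t10,c12-CLA, at 2238, but nearly level on c9,t11-CLA, at 3219.9 against 3580.2 on control. Psmc1 stood at -0.35 and -0.51. Psmc3 stood at -0.46 on c9,t11-CLA and -0.40 on t10,c12-CLA, by its brightest probe set, whose identifier marks a match to a family of sequences. The remaining ATPase, Psmc4, was above the floor on c9,t11-CLA only, at 738. Taken against the floor, it was at least 1.5-fold higher there than on control, and at least 1.5-fold lower on t10,c12-CLA than on c9,t11-CLA. Its signals were below the floor on t10,c12-CLA, at 82.4, and on control, at 312. Without detection calls such signals cannot be told from background. With no floor, 29.1% of all genes were at least 1.5-fold higher on c9,t11-CLA than on control.

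The base also holds scaffold and ubiquitin-binding subunits. Psmd1, the large scaffold to which other base subunits attach, gave 2434 on c9,t11-CLA and 11352 on t10,c12-CLA, against 7048 on control. The arrays fell far apart, with control between the isomers: Psmd1 was 2.90-fold lower on c9,t11-CLA, 1.61-fold higher on t10,c12-CLA and 4.67-fold higher on t10,c12-CLA than on c9,t11-CLA. The array carried a single probe set for this gene, so the pattern has no second reading. Psmd2, the companion scaffold, was below the floor on all 3 arrays (194, 310 and 96.0 on c9,t11-CLA, t10,c12-CLA and control). Psmd4, a receptor for ubiquitin chains, gave 5874 on c9,t11-CLA and 7826 on t10,c12-CLA, against 8536 on control, lowest on c9,t11-CLA.

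The lid genes did not move as a block. By their brightest probe sets, their median was -0.12 on c9,t11-CLA, with 5 of 8 below control. On t10,c12-CLA it was 0.26, with 6 of 8 above control. Psmd14, the metalloprotease that cuts ubiquitin from the substrate, gave 1263 on c9,t11-CLA and 1314 on t10,c12-CLA, against 2555 on control. It was 2.02-fold and 1.94-fold lower, and the CLA arrays were within 1.04-fold of each other. Psmd8 went the other way on t10,c12-CLA, with 3450.4 on c9,t11-CLA and 5002 on t10,c12-CLA against 3071 on control, 1.63-fold higher on t10,c12-CLA. Psmd3, Psmd7 and Psmd13, structural subunits of the lid, had log2 differences of -0.20, -0.18 and -0.06 on c9,t11-CLA and 0.34, 0.23 and 0.29 on t10,c12-CLA. Psmd6 stood at 0.10 and -0.25, and Psmd12 at 0.52 and 0.28, from signals of 1069.7 and 912 on the CLA arrays against 748 on control. Psmd11, which joins the lid to the base and the core, gave 10875 and 14837 on the CLA arrays against 12997 on control by its brightest probe set. Its other measured probe sets were below control on both diets, at -0.25 and -0.49 on t10,c12-CLA. Between the isomers the lid median was 0.38, with 6 of 8 genes higher on t10,c12-CLA and a highest value of 0.54.

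Among the assembly factors of the core, Pomp was at a similar level on both CLA arrays and lower there than on control. It encodes the chaperone that guides beta subunits into the assembling core and gave 4176 on c9,t11-CLA and 4116 on t10,c12-CLA, against 8481 on control. Pomp was 2.03-fold and 2.06-fold lower, and the CLA arrays were within 1.01-fold of each other. Psmg1, which with Psmg2 starts the alpha ring, gave 2084 and 1875 against 2481 on control. Psmg2 was above the floor on control only, at 593, and so at least 1.21-fold lower on both CLA diets. Psmg3, of another pair of chaperones, gave 2147 and 1812 against 2521 on control, log2 differences of -0.23 and -0.48. Its dimmer probe set gave 226 on c9,t11-CLA, below the floor, and 495 on t10,c12-CLA, against 992 on control, at least 2.02-fold lower on c9,t11-CLA and 2.01-fold lower on t10,c12-CLA. Its partner Psmg4 went the other way, with 3047 on c9,t11-CLA and 2075 on t10,c12-CLA against 1548 on control, 1.97-fold and 1.34-fold higher. The partners of this pair thus stood on opposite sides of the control.

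The chaperones of the base differed among themselves. Psmd5 gave 1832 on c9,t11-CLA and 1637 on t10,c12-CLA, against 2862 on control, 1.56-fold and 1.75-fold lower. Psmd10, known as gankyrin, was above the floor on control only, at 547, and so at least 1.12-fold lower on both CLA diets. Psmd9 was slightly higher on both, at 2948 and 3171 against 2667 on control. The activators, which cap the core in place of the regulatory particle, had medians of 0.16 on c9,t11-CLA and 0.10 on t10,c12-CLA. Psme3, the nuclear activator, gave 2314 and 2212 against 1566 on control, 1.48-fold and 1.41-fold higher. Psme1, an interferon-inducible activator subunit, stood at 0.16 and -0.04, and Psme4 at -0.15 and 0.10. Of the genes that only share the letters, Psmc3ip was below the floor on all arrays. Psme3ip1 gave 2254 on c9,t11-CLA and 1352 on t10,c12-CLA, against 1605 on control, and was 1.67-fold lower on t10,c12-CLA than on c9,t11-CLA.

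**Figure D3:**
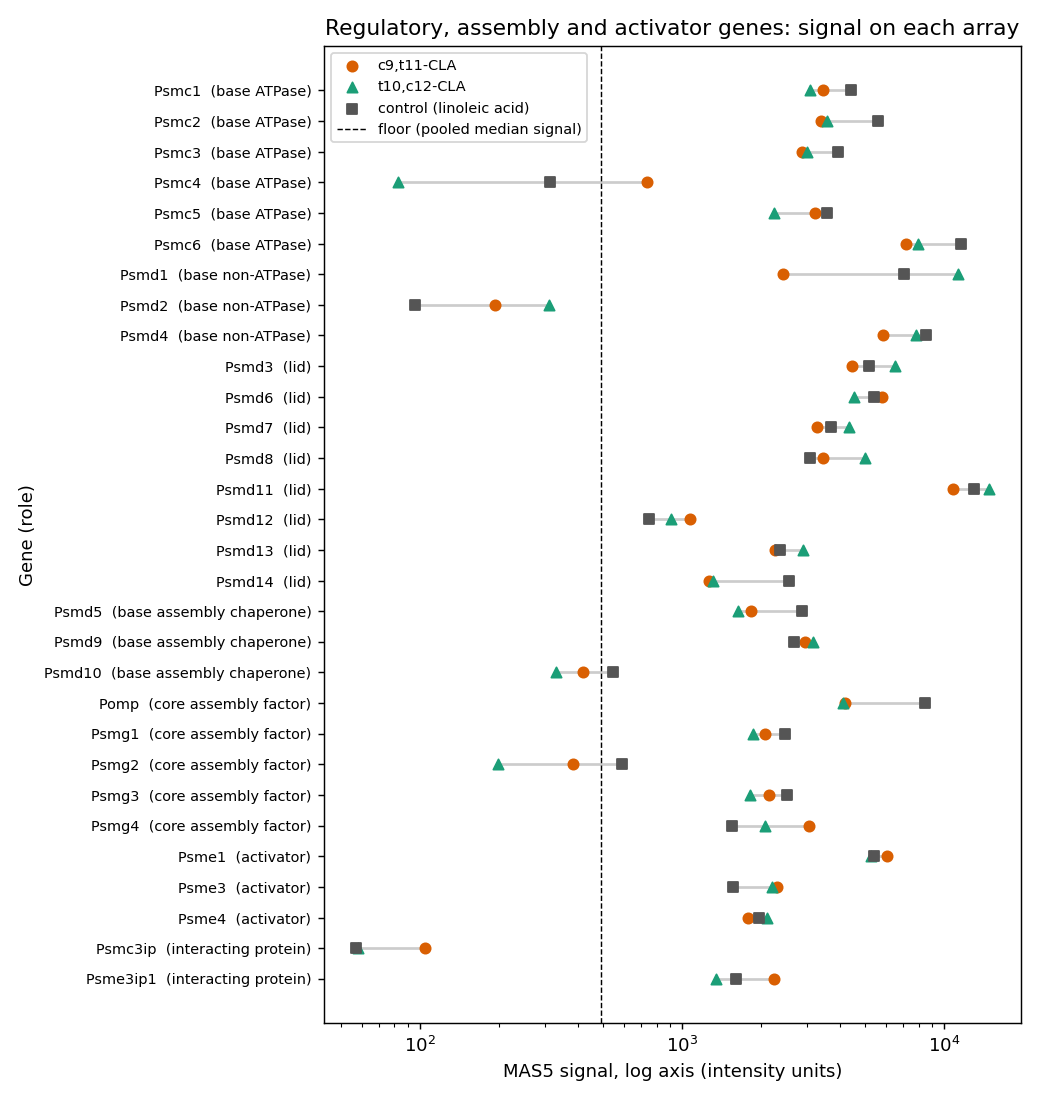
MAS5 signal (x axis, log scale) of the brightest probe set of each of the 30 regulatory, assembly and activator genes (rows, with their role) on the c9,t11-CLA, t10,c12-CLA and control arrays, 1 point per array, with the floor as a dashed line. Pomp and Psmd14 have both CLA arrays together at the left of control, Psmd1 has control between the isomers, and Psmd2 and Psmc3ip lie below the floor.

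Where more than 1 probe set of a gene exceeded the floor, the readings often differed. For c9,t11-CLA minus control the probe sets of a gene had the same sign in 1 of 4 genes, for t10,c12-CLA minus control in 3 of 5, and between the isomers in 1 of 4. Psmb1 ran from -0.78 to 0.09 and Psmb5 from -0.88 to 0.22 on c9,t11-CLA. The 3 probe sets of Psmc3 ran from -0.77 to 0.08 on c9,t11-CLA and from -0.55 to -0.40 on t10,c12-CLA. Those of Psmd11 ran from -0.75 to -0.15 and from -0.49 to 0.19. Of the 44 brightest probe sets, 8 carry a letter in their identifier that warns of cross-hybridisation or of relaxed probe choice. They are the ones of Psma3, Psmb4, Psmb5, Psmb7, Psmc3, Psmd9, Psmd12 and Psmg3. On c9,t11-CLA the probe sets of a gene spanned 0.60 to 1.10 log2 units, more than the size of the core median of -0.38.

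**Figure D4:**
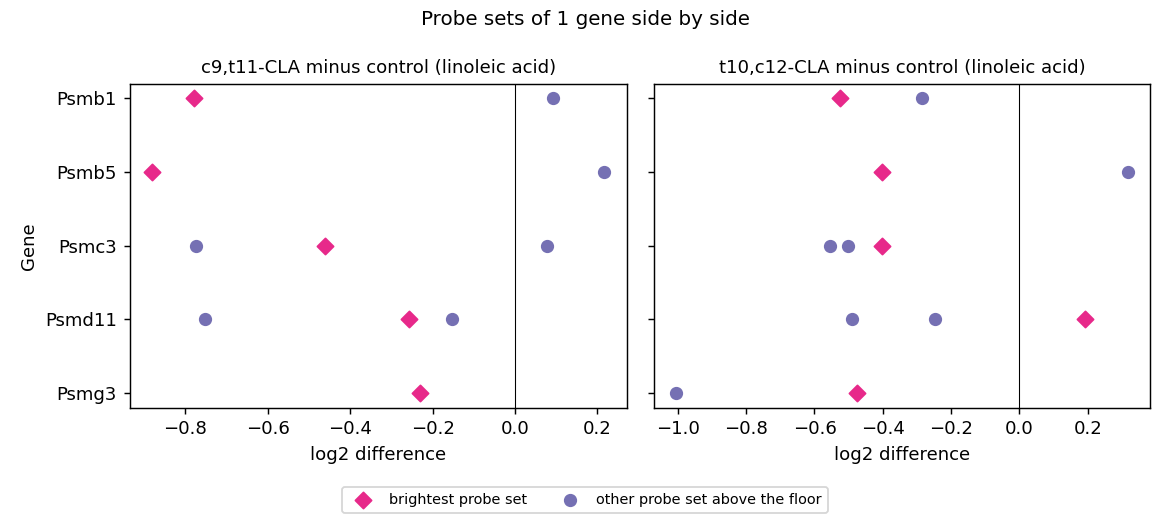
Log2 difference (x axis) of each probe set above the floor for the 5 genes with several (rows), for c9,t11-CLA minus control on the left and t10,c12-CLA minus control on the right. Diamonds are the brightest probe set and circles the others. Probe sets of Psmb5 lie on both sides of 0 on both diets, and those of Psmc3 lie together on t10,c12-CLA.

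The immunoproteasome catalytic subunits, which replace Psmb5, Psmb6 and Psmb7 after exposure to interferon, were each highest on c9,t11-CLA. Psmb8 gave 6222 on c9,t11-CLA and 3890.4 on t10,c12-CLA against 3733 on control, Psmb10 5401 and 2755 against 3691, and Psmb9 2674 and 2413 against 2332. Psmb8 was 1.67-fold and Psmb10 1.46-fold higher on c9,t11-CLA than on control. None of the 14 constitutive core genes was 1.5-fold higher there, where 13.0% of all measured genes were, a count near that share. Each of the 3 was lower on t10,c12-CLA than on c9,t11-CLA, with log2 differences of -0.68, -0.97 and -0.15 for Psmb8, Psmb10 and Psmb9.

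Other genes of the pathway were taken from lists of regulators, partners and upstream enzymes. Of 12 listed regulators of proteasome transcription, 9 were on the array and 7 measured, with medians of 0.08 on c9,t11-CLA and 0.11 on t10,c12-CLA, and on each diet 1 of the 7 was at least 1.5-fold higher (13.0% and 9.31% of all genes) and 0 were 1.5-fold lower (11.1% and 8.7% of all), counts near those shares. Nfe2l1 gave 5291 on c9,t11-CLA and 7031 on t10,c12-CLA against 5381 on control, while another probe set stood at 0.49 and 1.59. Nfe2l1 was thus highest on t10,c12-CLA by both probe sets. Foxo3, a forkhead transcription factor restrained by insulin, gave 2765 and 2658 against 1673 on control, log2 differences of 0.73 and 0.67. Of 13 listed deubiquitinases, shuttles and accessory proteins, 9 were on the array. By their brightest probe sets, 6 were measured for c9,t11-CLA minus control, 7 for t10,c12-CLA minus control and 6 between the isomers. None of those measured was 1.5-fold different by its brightest probe set. The shares of all genes higher and lower were 13.0% and 11.1%, 9.31% and 8.7%, and 11.5% and 12.8% in that order. With so few genes, none is near such shares. A dimmer probe set of Rad23b was 1.55-fold higher on t10,c12-CLA than on control and 1.70-fold higher than on c9,t11-CLA. One of Ubxn1 was 1.52-fold lower on t10,c12-CLA than on c9,t11-CLA. Usp14, a ubiquitin protease of the regulatory particle, gave 387 on c9,t11-CLA, below the floor, 688 on t10,c12-CLA and 976 on control. It was at least 1.99-fold lower on c9,t11-CLA than on control, while its other probe set, at 1056 on c9,t11-CLA and below the floor on the other arrays, was at least 2.15-fold higher. Uchl5, another such protease, was above the floor on control only, at least 1.30-fold lower on both CLA diets. Sem1, a small lid subunit whose symbol lies outside the Psm families, gave 9068 and 7429 against 8548 on control.

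Upstream of the proteasome, 8 genes of Vcp and of degradation from the endoplasmic reticulum were measured, with medians of 0.26 on c9,t11-CLA and -0.08 on t10,c12-CLA. At least 1.5-fold higher and lower than control were 1 and 1 on c9,t11-CLA (13.0% and 11.1% of all measured genes). On t10,c12-CLA 0 and 1 were (9.31% and 8.7%), and between the isomers 0 and 1 (11.5% and 12.8%). Among 8 genes these counts are near such shares. Vcp, the ATPase that pulls ubiquitinated proteins from membranes, gave 6551 and 6919 against 9029 on control, log2 differences of -0.46 and -0.38. Derl2, a membrane protein of the same degradation route, gave 1337 and 1140 against 2595 on control, log2 differences of -0.96 and -1.19. Sel1l, an adaptor of the same machinery, gave 2409 on c9,t11-CLA and 1896 on t10,c12-CLA against 1540.3 on control. Its dimmer probe set, below the floor on control, was at least 1.62-fold higher on c9,t11-CLA and 1.29-fold higher on t10,c12-CLA. Os9, a lectin of this pathway, was lower on t10,c12-CLA than on c9,t11-CLA, with a log2 difference of -0.59. Only Uba3 of the 7 listed ubiquitin and E1 genes had a probe set with a single symbol, and it stood at 0.15 and 0.03.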

How the data were processed

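Liver RNA was hybridised to 3 Affymetrix arrays, 1 per diet. The deposited values are intensities on a linear scale, made by the authors with MAS5 per the submitters' processing notes (version not given in the sources used here). They were not rescaled here. Symbols came from the platform annotation, updated by Entrez identifier through a RefSeq gene table (GRCm38.p6, names only). Of 12488 probe sets, 10833 had a single symbol, 396 several, 1193 none, and 66 were array controls. The brightest probe set (by mean log2 signal) stood for a gene, and differences are log2 differences between arrays. A gene above the floor on 1 array only is given as at least N-fold, against the floor of 490.3. Counts use 1.5-fold and 2-fold. No test was made, and the number of arrays limits the precision. Members named with values were the 4 largest differences in each direction per role group and comparison, members above the floor on only some arrays, members with discordant probe sets, and the assembly factors; further members were named after their values were seen. The members, lists, thresholds and alternatives were chosen with earlier results of these data known. Alternatives were equal medians, quantile normalization, other floors, a pseudocount of 50, the mean over probe sets, leaving out suffixed probe sets and leaving out the interacting proteins. The summary step was tested on simulated data. Python 3.11.15, numpy 2.4.6, pandas 2.3.3, scipy 1.17.1 and matplotlib 3.10.9 were used.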

Additional observations from a re-analysis of the deposited data

Results flagged for a closer look

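Psmd1, the scaffold subunit of the base, stood apart because its differences from the control array had opposite directions on the isomers, each past 1.5-fold. The log2 difference was -1.53 on c9,t11-CLA and 0.69 on t10,c12-CLA, and 2.22 for t10,c12-CLA minus c9,t11-CLA. This was the only member with such a pattern among the 39 above the floor on all arrays. The difference was not tested, since there was 1 array per diet, and a single probe set reported the gene.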

How the results depend on the processing

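No paired analysis was possible because there was 1 array per diet. Of 135 recomputed medians and counts, 121 stayed within 0.1 log2 units or 1.5 times the value reported, and no median past 0.1 changed sign. Setting the arrays to equal medians moved the c9,t11-CLA minus control medians to -0.45 for all members, -0.58 for core and -0.40 for regulatory members, while the median of all genes moved to -0.16. It moved the t10,c12-CLA minus c9,t11-CLA medians to 0.17, 0.29 and 0.16 in the same order, and the count at least 1.5-fold higher to 5 (14.6% of all genes). A floor at the 25th percentile gave a regulatory median of -0.25 for t10,c12-CLA minus control. With that floor, 2 members were 1.5-fold higher for c9,t11-CLA minus control (19.5% of all genes), and 2 were 1.5-fold lower between the isomers (17.7% of all). With no floor these counts were 4 and 4 of 44, where 29.1% and 25.6% of all genes were. At a 75th percentile floor, or without the interacting proteins (chosen after seeing the data), 0 members were 1.5-fold lower between the isomers, because Psme3ip1 was left out. The shares of all genes were 8.71% and 12.8%. For single members past 1.5-fold, another floor leaves the difference as it is by construction. Equal medians, quantile normalization, the pseudocount and the mean over probe sets gave 71 changed values, of which 0 changed sign. All but the mean rework the signals of the same probe set, so their outcome was nearly fixed in advance. Their 69 values all stayed past 1.5-fold. Only the mean over probe sets (added after seeing the data) brings in other probe sets, and it changed 2 values. These were Psmb1 and Psmb5 for c9,t11-CLA minus control, and both fell under 1.5-fold, at -0.34 and -0.33. By that mean, 8 members rather than 10 were 1.5-fold lower, where 10.5% of all genes were. Psmb5 was 0.22 without suffixed probe sets, where its second probe set stands for it. Without detection calls, low signals such as those of Psmc4 and Psmd2 cannot be told from background.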

Other observations

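Enzymes that pass ubiquitin on and genes of autophagy, the other main route of protein breakdown, were listed as neighbours of the proteasome. Of 21 listed ubiquitin-conjugating enzymes, 16 were on the array. For c9,t11-CLA minus control 12 were measured, with a median log2 difference of 0.06, 2 at least 1.5-fold higher and 1 lower, near the shares of all genes (13.0% and 11.1%). Ube2h and Ube2k each stood at 0.79, with second probe sets at 1.26 for Ube2h and, for Ube2k, at least 1.81-fold lower. Ube2b, which acts in DNA damage tolerance, stood at -0.69. For t10,c12-CLA minus control 11 were measured, with a median of -0.17. Ube2l6, an interferon-inducible enzyme that also passes on the ubiquitin-like protein encoded by Isg15, gave 820 on c9,t11-CLA and 1462 on t10,c12-CLA, against 812 on control. Ube2s, which extends chains during mitosis, had a log2 difference of -0.97 for t10,c12-CLA minus c9,t11-CLA.

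Of 12 listed genes of autophagy and muscle-type ligases, 10 were measured, all of them autophagy genes, with medians of 0.10 on c9,t11-CLA and 0.03 on t10,c12-CLA against control. The listed ligases, Fbxo32 and Trim63, had no probe set with a single symbol. Map1lc3b, a protein of the autophagosome membrane, was the only one at least 1.5-fold different from control, at 0.65 on t10,c12-CLA, with another probe set at -0.02. On t10,c12-CLA 9.31% of all measured genes were 1.5-fold higher and 8.7% lower, and on c9,t11-CLA 13.0% and 11.1%. Among 10 genes these counts are near such shares. Sqstm1, a receptor that brings ubiquitinated cargo to autophagosomes, gave 12504 on c9,t11-CLA and 18827 on t10,c12-CLA, against 17499 on control. Probe sets that match both Psme2 and Psme2b were left out of the members for lack of a single symbol. The brighter of them gave 3734 on c9,t11-CLA and 2513 on t10,c12-CLA, against 3013 on control.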
